A study of Mus musculus with 9 samples.

Results

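Leukaemia inhibitory factor (LIF) keeps mouse embryonic stem (ES) cells undifferentiated through a short relay of receptor, kinase and transcription factor, and the 10 genes described here encode that relay and its brakes. They are Lifr, Il6st, Jak1, Stat3, Pim1, Pim3, Socs3, Socs2, Socs1 and Cish. They were taken by gene symbol from a table of 20189 genes, all 10 were present, and all 10 were tested among the 20143 genes with at least 1 count. The cells were wild-type E14, a feeder-independent mouse ES cell line, in 3 groups of 3 RNA sequencing libraries. One group was starved of threonine (Thr) and another of cysteine (Cys), each for 3 h, and the unstarved group was kept with all amino acids. Cells were grown in 10 ng/ml recombinant murine LIF, and the starvation medium that the labels describe contains LIF for every group, although that description names only arginine and leucine as the amino acids left out. All libraries come from a single cell line, and nothing states whether the 3 libraries of a group came from separate cultures, so each p-value measures only the spread between these libraries.

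LIF binds a receptor made of LIFR and gp130, the product of Il6st. Janus kinases held by the receptor, JAK1 among them, phosphorylate it and then STAT3, which enters the nucleus and switches on target genes. Among these targets are Socs3, whose protein binds the receptor and JAK and shuts the signal off, and the PIM kinases, which favour growth and survival. In mouse ES cells STAT3 activity sustains self-renewal together with other pluripotency factors, and SOCS3 limits it.

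The 10 genes were chosen with earlier results of these data known, so shares of all genes beside them are descriptive. Of the 10 genes, 7 rose in Thr-starved cells, where 31.1% of all genes tested rose, and the largest increases were in Pim1, Socs3, Stat3 and Lifr. Cys starvation left a different picture, in which Socs3, Socs2 and Pim3 fell and Pim1 and Lifr rose. The Lifr call was at the edge of the threshold and was lost in 11 of 18 alternative settings. The other 5 genes did not pass the test, where 36.3% of all genes were called. To show where transcription of the most strongly raised genes begins, bases upstream of a RefSeq start of Pim1, Socs3 and Stat3 are printed 5′ to 3′ on the strand of the gene, together with a short Cish site that holds a pair of STAT-type motifs. Capitals mark TTCNNNGAA, the palindromic spacing that STAT dimers are known to bind, which reads the same on both strands. Build GRCm38.p6 holds the sequences at chr17:29490535-29490752 on the plus strand for Pim1, chr11:117969367-117969616 on the minus strand for Socs3, chr11:100939541-100939790 on the minus strand for Stat3 and chr9:107296654-107296682 on the plus strand for Cish.
Pim1: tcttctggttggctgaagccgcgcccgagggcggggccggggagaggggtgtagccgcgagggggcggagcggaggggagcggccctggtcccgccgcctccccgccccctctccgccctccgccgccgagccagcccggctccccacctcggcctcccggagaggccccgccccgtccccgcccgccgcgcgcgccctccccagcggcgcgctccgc
Socs3: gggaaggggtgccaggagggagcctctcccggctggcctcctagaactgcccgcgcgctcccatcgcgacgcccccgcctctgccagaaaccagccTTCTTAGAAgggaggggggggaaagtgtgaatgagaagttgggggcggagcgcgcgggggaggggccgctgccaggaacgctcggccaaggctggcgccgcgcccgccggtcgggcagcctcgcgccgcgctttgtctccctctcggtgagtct
Stat3: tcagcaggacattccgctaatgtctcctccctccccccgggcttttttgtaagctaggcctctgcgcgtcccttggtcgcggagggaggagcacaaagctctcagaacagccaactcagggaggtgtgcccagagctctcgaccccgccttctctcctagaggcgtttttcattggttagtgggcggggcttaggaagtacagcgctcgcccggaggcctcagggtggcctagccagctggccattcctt
Cish: cagttTTCCTGGAAagTTCTTGGAAatct

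The motif search covered 300 bases, from 250 before to 50 after each RefSeq start, and 9 of the 10 genes had such a window (11 windows in all). Socs2 had none, and Pim1 and Lifr had more than 1. The Pim1 stretch printed comes from the first of its windows and stops before the GENCODE start of the gene, short of the RefSeq start. Socs3 held 1 match, TTCTTAGAA, whose first base lies at position -154 with the first transcribed base counted as 1. Cish held 2 matches, TTCCTGGAA at position 1 and TTCTTGGAA at position 12. In 32851 windows over all genes, 8.3% held at least 1 match, and the windows of the other 7 genes held none. A match is a run of letters and says nothing on binding in these cells. The printed Socs3 stretch lies inside the outer span that GENCODE gives the gene, upstream of its protein-coding transcript, and overlaps an exon of a non-coding one.

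The 9 libraries held between 48763102 and 74962733 counts, and between 19943 and 20074 genes were detected in each. Levels are given as CPM, the reads of a gene set against the total of its library after scaling for library composition, and changes as log2 fold changes with their standard error (SE) from edgeR's quasi-likelihood test, with p-values adjusted by the Benjamini-Hochberg method over all 20143 genes and called at 0.05 or less. The 8 marker genes of ES cells summed to 4063 to 4096 CPM in unstarved, 3838 to 3881 CPM in Cys-starved and 3971 to 4041 CPM in Thr-starved libraries. Beneath that sum, Utf1 and Nanog fell with Thr starvation (307 to 95.1 and 283 to 211 CPM), whereas Sox2 (397 to 537 CPM) and Esrrb (487 to 655 CPM) rose. Markers of other cell types were far below the ES cell sum, but Krt8, which carries the trophoblast sum, was at 55.7 CPM in unstarved cells, near the level of Jak1. The 4 measured fibroblast genes (of 6 listed) summed to 13.3 to 13.6 CPM unstarved, 12.0 to 14.9 CPM with Cys starvation and 9.48 to 10.6 CPM with Thr starvation, and the 3 neural genes to 19.2 to 20.4, 23.8 to 25.3 and 27.5 to 31.5 CPM. The 3 mesendoderm genes summed to 5.91 to 7.49, 5.33 to 5.97 and 2.63 to 2.83 CPM, the 4 primitive endoderm genes to 3.43 to 3.97, 4.52 to 5.43 and 4.70 to 4.94 CPM, the 2 trophoblast genes (of 3) to 54.7 to 59.7, 52.6 to 55.4 and 44.8 to 47.9 CPM, and the 1 measured blood gene, Cd68 (of 2), to 8.98 to 9.48, 9.38 to 10.1 and 8.96 to 10.6 CPM, each in the same order of groups. Genes within a sum differed. From unstarved to Thr-starved cells, Thy1 went from 3.24 to 0.882 CPM and Col1a1 from 5.06 to 3.89 CPM. The other fibroblast genes, Col1a2 (4.62 to 4.83 CPM) and Col3a1 (0.569 to 0.515 CPM), moved less. Of the neural genes, Sox1 went from 8.37 to 15.4 CPM, Pax6 from 7.53 to 8.24 CPM and Neurod1 from 3.95 to 5.65 CPM. The part of these marker shifts in the results was not tested. In bulk RNA of this kind, fewer cells of a type and less RNA per cell cannot be told apart.

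**Figure D1:**
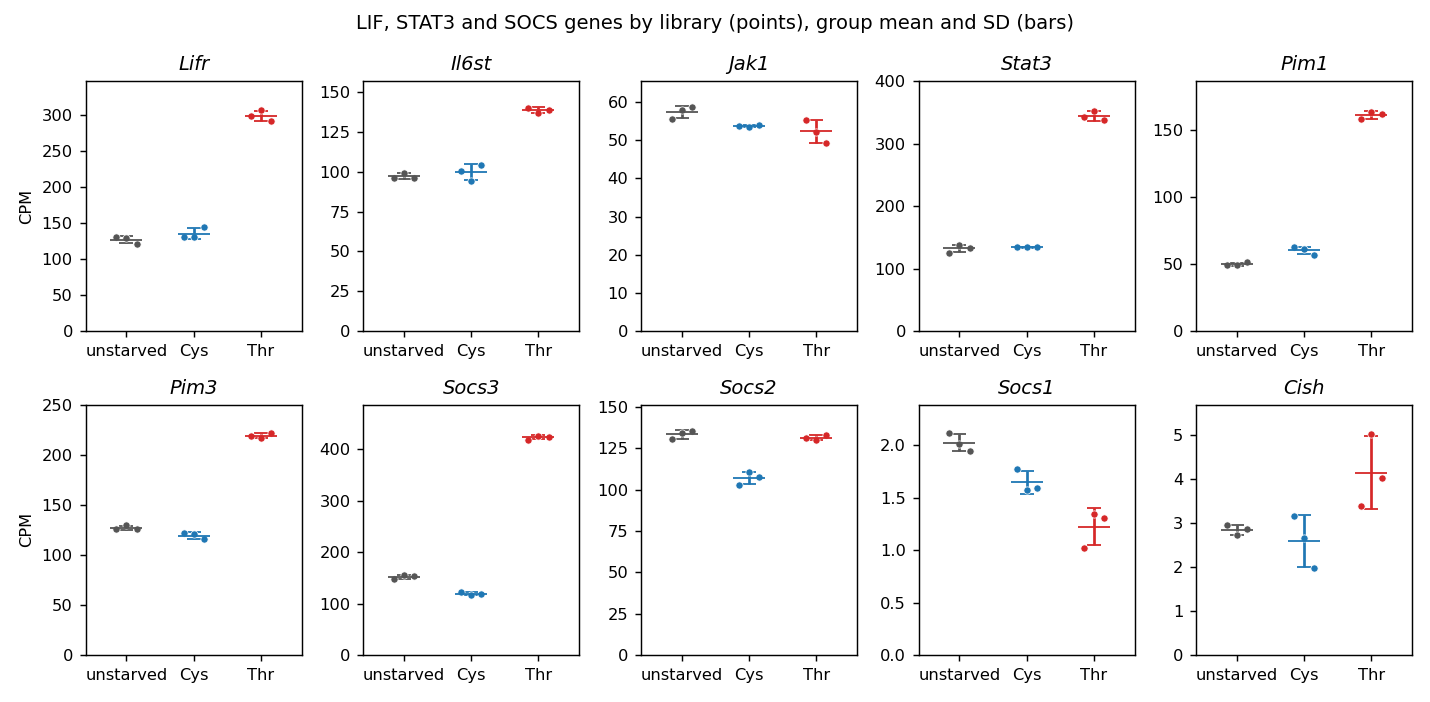
CPM of each of the 10 genes (y axis, starting at 0) in unstarved, Cys-starved and Thr-starved ES cells. Points are libraries, and bars give the mean and SD of 3. Thr-starved libraries stand apart for Lifr, Stat3, Pim1, Pim3 and Socs3, whereas Socs2 is low with Cys starvation and Socs1 is low with Thr starvation.

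The receptor was affected unequally. Lifr (ENSMUSG00000054263; chromosome 15, 7090614 to 7197489, plus strand, GRCm38), which encodes the subunit that binds LIF, was at 130.3, 130.2 and 121 CPM in the unstarved libraries, at 131, 131 and 145 CPM in the Cys-starved and at 299, 307 and 292 CPM in the Thr-starved libraries. Every Thr-starved library was above every other library, and the Cys-starved libraries lay just above the unstarved ones. Lifr rose 2.35-fold with Thr starvation (log2 fold change 1.23, SE 0.0353, edgeR adjusted p = 2.5e-18). With Cys starvation the difference was 0.09 (SE 0.0354, edgeR adjusted p = 0.0487), a call at the edge of the threshold. Leaving out unstarved replicate 1 or 3, Cys-starved replicate 3 or Thr-starved replicate 1 or 2 ended that call, with differences from 0.04 to 0.11 and edgeR adjusted p-values from 0.054 to 0.36. With other settings included, the call was lost in 11 of 18 alternatives.

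Il6st (ENSMUSG00000021756; chromosome 13, 112464070 to 112510086, plus strand), which encodes gp130, the subunit shared by the interleukin-6 family of cytokines, was at 96.3, 99.3 and 96.2 CPM unstarved, at 101, 94.5 and 104 CPM with Cys starvation and at 140.3, 137 and 139 CPM with Thr starvation. The unstarved and Cys-starved libraries overlapped, and the Thr-starved libraries were all higher. Il6st rose 1.42-fold with Thr starvation (log2 0.51, SE 0.0315, edgeR adjusted p = 2.0e-12). Its Cys difference was 0.04, with a 95% interval from -0.03 to 0.10 (edgeR adjusted p = 0.40). Stretches of at least 43 bases in Il6st transcripts match 8 other genes at 95% identity or more, so a part of its reads may be shared.

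Jak1 (ENSMUSG00000028530; chromosome 4, 101152367 to 101265282, minus strand), the kinase that gp130 relies on, changed least among the upstream genes with Thr starvation. It was at 55.6, 58.0 and 58.8 CPM unstarved, at 53.8, 53.4 and 54.0 CPM with Cys starvation and at 55.3, 52.3 and 49.4 CPM with Thr starvation. Both starved groups lay below the unstarved libraries, the Thr-starved group by a narrow gap. Jak1 fell by 0.14 on the log2 scale with Thr starvation (SE 0.0381, edgeR adjusted p = 0.0033). The Cys difference of -0.10 (95% interval -0.17 to -0.02) had an edgeR adjusted p of 0.051 and was not called. It was called in 9 of 18 alternatives, among them without unstarved replicate 1 (edgeR adjusted p = 0.031), Thr-starved replicate 1 (0.029) or Thr-starved replicate 3 (0.026). Exons of Raver2 overlap Jak1 on the opposite strand, and Raver2 was at 14.6 CPM unstarved, 13.6 CPM with Cys starvation and 10.4 CPM with Thr starvation. The strand setting of the counting is not given in the sources used here, and the part of Raver2 in the Jak1 values was not tested.

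Stat3 (ENSMUSG00000004040; chromosome 11, 100885098 to 100939540, minus strand), the transcription factor of the pathway and itself a known STAT3 target, was at 126, 138 and 134 CPM unstarved, at 134, 134 and 135 CPM with Cys starvation and at 344, 353 and 338 CPM with Thr starvation. The Cys-starved libraries fell within the unstarved range, and the Thr-starved libraries were far above both. Stat3 rose 2.60-fold with Thr starvation (log2 1.38, SE 0.0287, edgeR adjusted p = 9.7e-21). With Cys starvation the difference was 0.02 with a 95% interval from -0.04 to 0.08 (edgeR adjusted p = 0.66). Stat5a, which overlaps Stat3 on the opposite strand, was at 1.50 CPM unstarved, 2.43 CPM with Cys starvation and 0.877 CPM with Thr starvation, small beside Stat3 in every group. Stretches of at least 43 bases in Stat3 transcripts match Stat5a and 2310058D17Rik at 95% identity or more, so a part of its reads may be shared. The search covered both strands, so the Stat5a match may be that same overlap and not a further source of shared reads. The level of 2310058D17Rik is not described here.

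The PIM kinases phosphorylate proteins of growth and survival without needing activation by another kinase, so their activity follows their abundance. Pim1 (ENSMUSG00000024014; chromosome 17, 29490753 to 29496112, plus strand) was at 49.4, 49.5 and 51.4 CPM unstarved, at 62.6, 61.1 and 57.2 CPM with Cys starvation and at 158, 164 and 162 CPM with Thr starvation. The groups did not overlap, with Cys-starved libraries between the other two. Pim1 rose 3.22-fold with Thr starvation (log2 1.69, SE 0.0327, edgeR adjusted p = 2.7e-21), the largest increase among the 10 genes and number 72 among 11410 genes whose mean level was 5 CPM or more. It also rose 1.20-fold with Cys starvation (log2 0.27, SE 0.0335, edgeR adjusted p = 1.3e-06). Gm26885, on the opposite strand of Pim1, was at 0.471 CPM or less in every group mean.

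Pim3 (ENSMUSG00000035828; chromosome 15, 88862186 to 88865726, plus strand) was at 126, 129.7 and 126 CPM unstarved, at 122, 121 and 116 CPM with Cys starvation and at 219.5, 217 and 222 CPM with Thr starvation. Its Cys-starved libraries were the lowest and its Thr-starved libraries the highest, with no overlap. Pim3 rose 1.73-fold with Thr starvation (log2 0.79, SE 0.0263, edgeR adjusted p = 3.8e-17) and fell by 0.09 on the log2 scale with Cys starvation (SE 0.0265, edgeR adjusted p = 0.0099). Without Cys-starved replicate 3 the fall was 0.07 and was not called (edgeR adjusted p = 0.071).

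The SOCS proteins end cytokine signals by blocking kinases and by marking receptors for degradation, and the 4 family members listed here did not move together. Socs3 (ENSMUSG00000053113; chromosome 11, 117966079 to 117970047, minus strand), the inhibitor that binds gp130, was at 147, 155 and 154 CPM unstarved, at 122, 117 and 119 CPM with Cys starvation and at 419, 426 and 424 CPM with Thr starvation. Each group was tight and none overlapped. Socs3 rose 2.78-fold with Thr starvation (log2 1.48, SE 0.0253, edgeR adjusted p = 3.0e-22) and fell by 0.35 on the log2 scale with Cys starvation (SE 0.0255, edgeR adjusted p = 3.6e-10). By size it was increase number 117 with Thr starvation and decrease number 434 with Cys starvation among the 11410 genes.

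Socs2 (ENSMUSG00000020027; chromosome 10, 95385362 to 95417180, minus strand), best known as the brake on growth hormone signalling, was at 131, 134 and 136 CPM unstarved, at 103, 110.4 and 107 CPM with Cys starvation and at 132, 130.1 and 133 CPM with Thr starvation. Here the Cys-starved libraries were the ones that stood apart, and the Thr-starved libraries overlapped the unstarved. Socs2 fell by 0.32 on the log2 scale with Cys starvation (SE 0.0281, edgeR adjusted p = 7.3e-09). With Thr starvation the difference was -0.02, with a 95% interval from -0.08 to 0.04 (edgeR adjusted p = 0.54). Socs2 transcripts share stretches of 43 bases or more with the genes Gm8000 and Gm9847 at 95% identity, so its counts are uncertain to that extent.

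Socs1 and Cish were rare, with 50 to 128 raw counts per library for Socs1 and 118 to 295 for Cish, so their standard errors were larger, 0.148 to 0.159 on the log2 scale against 0.0253 to 0.0256 for Socs3. Socs1 (ENSMUSG00000038037; chromosome 16, 10782240 to 10785536, minus strand), a direct inhibitor of JAK kinases, was at 2.12, 2.02 and 1.95 CPM unstarved, at 1.78, 1.58 and 1.59 CPM with Cys starvation and at 1.02, 1.34 and 1.31 CPM with Thr starvation. The 3 groups stepped down without overlap. Socs1 fell by 0.72 on the log2 scale with Thr starvation (SE 0.156, edgeR adjusted p = 3.4e-04), whereas the Cys difference of -0.30 had a 95% interval from -0.61 to 0.01 and was not called (edgeR adjusted p = 0.13).

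Cish (ENSMUSG00000032578; chromosome 9, 107296026 to 107302784, plus strand), an inhibitor classically induced by STAT5, was at 2.94, 2.71 and 2.86 CPM unstarved, at 3.16, 2.64 and 1.98 CPM with Cys starvation and at 3.39, 5.01 and 4.02 CPM with Thr starvation. The Thr-starved libraries were the highest and spread widely, and the Cys-starved libraries straddled the unstarved. Cish rose 1.46-fold with Thr starvation (log2 0.54, SE 0.148, edgeR adjusted p = 0.0029). The Cys difference was -0.13 with a 95% interval from -0.45 to 0.19 (edgeR adjusted p = 0.58). The genes Gm17040 and Gm17041 overlap Cish on the opposite strand and were not analysed here.

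Counted together, 7 of the 10 genes rose and 2 fell with Thr starvation, and 9 had libraries that did not overlap the unstarved ones. Over all 20143 genes, 63.0% were called in that comparison (31.1% higher, 31.9% lower) and 66.5% did not overlap. The median log2 fold change was 0.66 over the 10 genes and -0.02 over all genes, and the median absolute value was 0.75 against 0.39. With Cys starvation 2 rose and 3 fell, and 7 did not overlap, where 36.3% of all genes were called (17.5% higher, 18.8% lower) and 46.4% did not overlap. The median over the 10 genes was -0.09, against 0.0068 over all genes, with a median absolute value of 0.11 against 0.17. Asked for a log2 fold change of at least 1 as well, 4 of the 10 genes remained with Thr starvation, where 13.2% of all genes met both limits, and 0 with Cys starvation, where 1.47% did. Shares of all genes, here and elsewhere, include genes below a mean of 5 CPM, as Socs1 and Cish are. Among the 11410 genes with a mean of 5 CPM or more, 9199 were called with Thr starvation (4740 higher, 4459 lower), and 9353 did not overlap. With Cys starvation 6278 of them were called (2803 higher, 3475 lower), and 7268 did not overlap. Both comparisons use the same 3 unstarved libraries, so their values are set side by side and not correlated. Because the 10 genes and both gene lists below were chosen with earlier results known, their counts and medians are descriptions only. Set beside all genes, they are no test of the pathway.

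**Figure D2:**
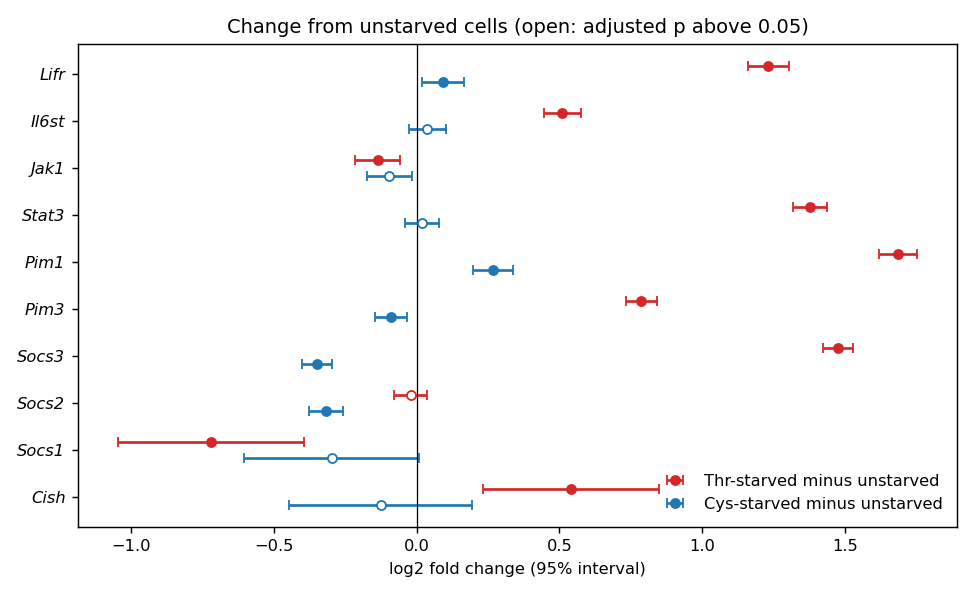
Log2 fold change from unstarved cells (x axis, with 95% intervals from edgeR) for each gene, in Thr-starved (red) and Cys-starved (blue) cells. Open points have an adjusted p above 0.05. Pim1, Socs3, Stat3 and Lifr lie above 1 with Thr starvation, and every Cys value lies between -0.35 and 0.27.

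The direct contrast of the starved groups asks whether the response depended on the amino acid removed. It called 8 of the 10 genes higher and 1 lower in Thr-starved than in Cys-starved cells, where 62.0% of all genes were called (30.4% higher, 31.6% lower), and 9 of the 10 had libraries that did not overlap, against 65.8% of all genes. In 4 the difference was also at least 1 on the log2 scale, against 11.4% of all genes. Socs3 led with a 3.54-fold higher level in Thr-starved cells (log2 1.83, SE 0.0256, edgeR adjusted p = 6.3e-23), the gene ranked 23 among 11410. Pim1 was 2.68-fold higher (1.42, SE 0.0320), Stat3 2.57-fold (1.36, SE 0.0287), Lifr 2.21-fold (1.14, SE 0.0351) and Pim3 1.84-fold (0.88, SE 0.0263). Il6st was higher by 0.47 (SE 0.0314) and Cish by 0.67 (SE 0.148) on the log2 scale. Socs2 differed by 0.30 (SE 0.0282, edgeR adjusted p = 3.8e-09), a gap that came with the low Cys-starved libraries. Socs1 was lower in Thr-starved cells by -0.42 (SE 0.159, edgeR adjusted p = 0.025), a call lost without Cys-starved replicate 1 (edgeR adjusted p = 0.089) and without Thr-starved replicate 1 (edgeR adjusted p = 0.12). Jak1 did not pass the test (-0.04, 95% interval -0.12 to 0.04, edgeR adjusted p = 0.37).

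Divided by exon length, the levels give an order from low to high. The length counts every annotated exon of a gene, whether or not these cells use it, so the order between genes depends on that choice. In unstarved cells Cish (0.442 CPM per kilobase) and Socs1 (0.697) were at the bottom, followed by Jak1 (7.95), Il6st (8.76), Lifr (11.8), Stat3 (13.9), Socs2 (14.0), Pim1 (14.9), Pim3 (52.4) and Socs3 (52.6). The neighbours Stat3 and Socs2, and the neighbours Pim3 and Socs3, had overlapping libraries and so no clear order. In Cys-starved cells Socs3 (41.3) lay below Pim3 (49.2), and Socs2 (11.2) dropped below Lifr (12.6) and Stat3 (14.1). Thr-starved cells had Socs3 (146) well above Pim3 (90.4), then Pim1 (48.0), Stat3 (36.2), Lifr (27.8), Socs2 (13.8) and Il6st (12.5), with Jak1 (7.24), Cish (0.645) and Socs1 (0.421) last, and no neighbours overlapped in either starved group.

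**Figure D3:**
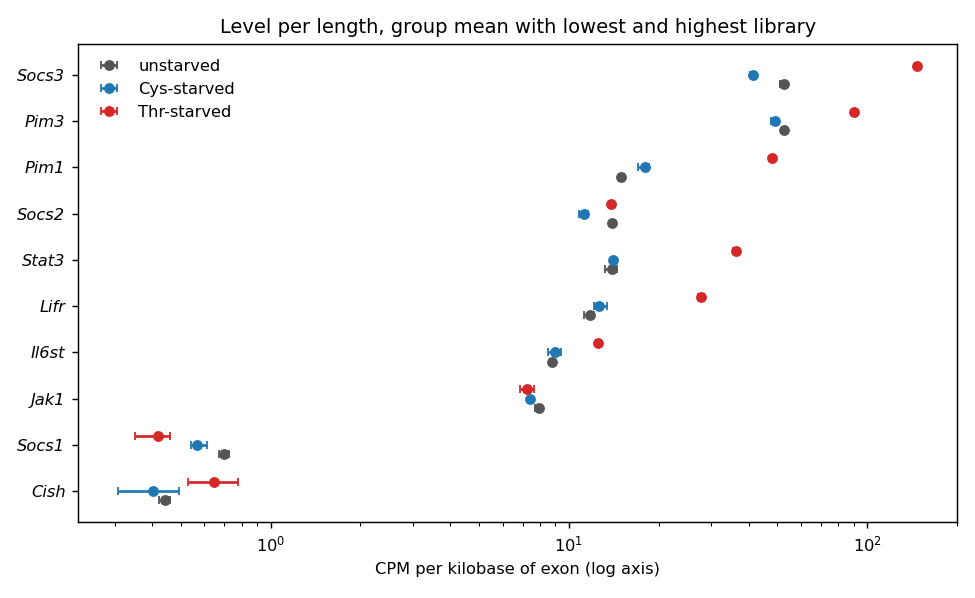
Level per length (CPM per kilobase of exon, log axis) of the 10 genes in each group. Points are means of 3 libraries, and bars run from the lowest to the highest library. Thr-starved cells had Socs3 highest, at 146 CPM per kilobase, and Socs1 and Cish lie below 1 in all groups.

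Within the 4 SOCS members, the summed level per length was 67.7 ± 1.69 CPM per kilobase in unstarved, 53.5 ± 0.626 in Cys-starved and 161 ± 1.50 in Thr-starved cells (SD, n = 3 each). Socs3 made up 77.6 ± 0.275% of that sum in unstarved cells and 77.2 ± 0.818% in Cys-starved cells, where Socs3 and Socs2 fell alongside each other. In Thr-starved cells the Socs3 share was 90.8 ± 0.0511%. These shares depend on the annotated exon lengths, 2891 bases for Socs3 and 9531 for Socs2. Before division by length, the unstarved means were closer, at 152 CPM for Socs3 and 133 CPM for Socs2. Socs2 accordingly went from 20.7 ± 0.192% and 21.0 ± 0.952% to 8.56 ± 0.128%. Socs1 was at 1.03, 1.06 and 0.261% and Cish at 0.653, 0.755 and 0.400% of the sum in unstarved, Cys-starved and Thr-starved cells. The Socs3 shares of unstarved (77.4 to 77.9%) and Cys-starved libraries (76.4 to 78.0%) overlapped, and those of Thr-starved libraries (90.7 to 90.8%) stood apart from both.

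**Figure D4:**
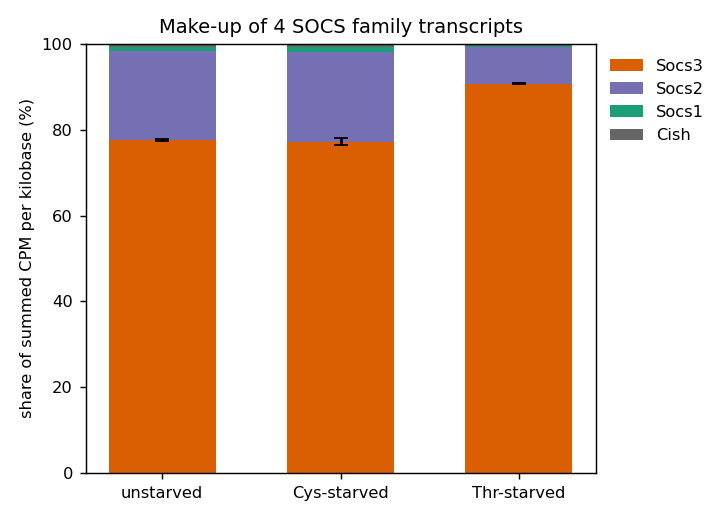
Share of Socs3, Socs2, Socs1 and Cish in their summed CPM per kilobase of exon (y axis, percent), as the mean of 3 libraries per group. The error bar is the SD of the Socs3 share. Socs3 takes 77.6% in unstarved, 77.2% in Cys-starved and 90.8% in Thr-starved cells.

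Further genes of LIF and related cytokine signalling, some of which serve other cytokines, did not rise as a block. Of 33 further genes of cytokine signalling, 16 rose, 13 fell and 4 did not pass the test with Thr starvation, with a median log2 fold change of 0.08 against -0.02 over all genes. Over all genes 31.1% rose and 31.9% fell. Among them 7 of the 8 other SOCS and ubiquitin ligase genes rose and 1, Socs5, fell (-0.30), with a median over the 8 of 0.14. The Socs6 rise (0.12) lost its call without unstarved replicate 2 (edgeR adjusted p = 0.065). The Socs7 rise (0.16) lost it without Thr-starved replicate 2 (edgeR adjusted p = 0.071). Of the 8 other JAK and STAT genes 2 rose and 5 fell. Lif itself, the gene of the ligand that is also supplied in the medium, was at 3.04, 3.87 and 3.75 CPM unstarved, at 3.30, 3.83 and 3.25 CPM with Cys starvation and at 10.2, 10.7 and 12.2 CPM with Thr starvation. Only its Thr-starved libraries stood apart. Lif rose 3.12-fold with Thr starvation (log2 1.64, SE 0.100, edgeR adjusted p = 1.6e-12), and the Cys difference was -0.03 (SE 0.113, edgeR adjusted p = 0.85).

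Another large Thr increase among these genes was in Socs4, a SOCS protein linked to epidermal growth factor receptor turnover (32.1, 32.1 and 31.2 CPM unstarved against 64.6, 65.7 and 66.2 CPM; log2 1.04, SE 0.0347). Ptpn6, the phosphatase SHP-1 that restrains JAK signalling, fell by 1.15 on the log2 scale (SE 0.0556), from 20.1, 21.9 and 22.0 CPM to 9.45, 9.62 and 9.77 CPM. Stat6, which interleukin-4 activates, fell by 0.90 (SE 0.0506), and Tyk2, another Janus kinase, by 0.58 (SE 0.0363). These 4 genes were named for the size of their change. None of them had Thr-starved libraries that overlapped the unstarved ones, where 66.5% of all genes did not overlap.

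With Cys starvation 11 of the 33 rose, 8 fell and 14 did not pass the test, where 17.5% of all genes rose and 18.8% fell, with a median of -0.00498 against 0.0068 over all genes. Stat5b, a STAT protein activated by growth hormone and several cytokines, rose most (5.85, 5.84 and 6.46 CPM unstarved against 12.1, 11.9 and 11.6 CPM; log2 0.98, SE 0.0851, edgeR adjusted p = 5.9e-09). Its Cys-starved libraries were all above the unstarved ones, and it rose less with Thr starvation (0.52, SE 0.0887). Socs4 rose by 0.30 (SE 0.0355). Pim2, the remaining PIM kinase, fell by 0.41 on the log2 scale with Cys starvation (SE 0.0346) and by 0.23 with Thr starvation (SE 0.0346), so the PIM genes did not share a direction in either comparison. Jak3 fell by 0.19 with Cys starvation (SE 0.0368), and Ptpn6 fell by 0.15 (SE 0.0507, edgeR adjusted p = 0.026). The Ptpn6 call was lost without unstarved replicate 2 or 3 or Cys-starved replicate 1 or 2, with an edgeR adjusted p of up to 0.10.

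Known STAT3 targets of ES cells moved in both directions with Thr starvation. Of 14 such genes, 7 rose, 4 fell and 3 did not pass the test, where 31.1% of all genes rose and 31.9% fell, and the median was 0.14 against -0.02 over all genes. Klf5, a factor of the naive state, was at 211, 226 and 215 CPM unstarved and at 455, 477 and 459.6 CPM with Thr starvation, a rise of 1.09 on the log2 scale (SE 0.0273). Junb rose by 0.96 (SE 0.0369) and Klf4, a direct STAT3 target that sustains self-renewal, by 0.85 (SE 0.0233). Gbx2, another target able to sustain self-renewal, moved the other way, from 53.6, 57.9 and 56.3 CPM to 15.5, 16.3 and 16.2 CPM (-1.80, SE 0.0435). Myc went from 87.4, 89.3 and 89.0 CPM to 32.7, 36.7 and 35.4 CPM (-1.34, SE 0.0361).

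With Cys starvation 10 of the same 14 genes were lower, 2 were higher and 2 were not called, where 18.8% of all genes were lower and 17.5% higher, with a median of -0.23 against 0.0068 over all genes. Gbx2 was at 33.5, 34.8 and 32.7 CPM (-0.73, SE 0.0397), and Zfp36 and Junb fell by 0.40 (SE 0.0714) and 0.35 (SE 0.0385). Klf5 rose by 0.24 (SE 0.0272). Klf4 was at 155, 155 and 155 CPM against 146, 151 and 147 CPM unstarved, a rise of 0.07 on the log2 scale (SE 0.0234, edgeR adjusted p = 0.024). The Klf4 call was lost in 6 of 18 alternatives, among them without unstarved replicate 1 or 3 or any 1 of the Cys-starved libraries, with values between 0.03 and 0.08 and an edgeR adjusted p of up to 0.42. Like Socs3, the genes Junb, Mcl1 (0.80 and -0.12), Sall4 (0.37 and -0.16) and Tfcp2l1 (0.17 and -0.27) were raised without Thr and lowered without Cys. Gbx2 and Myc were among the genes that fell with both. The share of all genes raised without Thr and lowered without Cys was not counted, so how common this pattern is cannot be said.

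**Figure D5:**
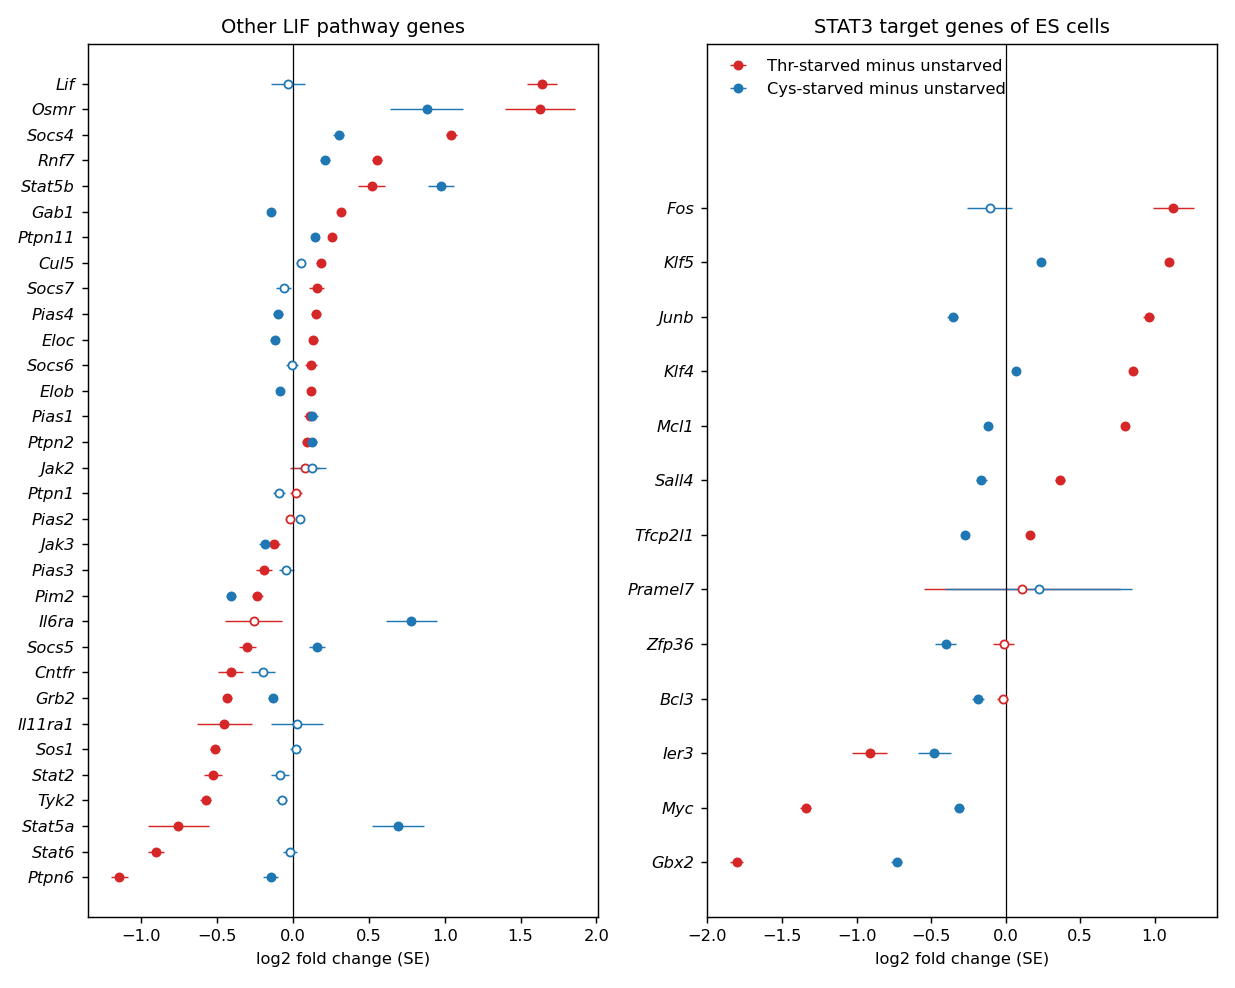
Log2 fold change from unstarved cells (x axis, bars give the SE) in Thr-starved (red) and Cys-starved (blue) cells, sorted by the Thr value. On the left, headed other LIF pathway genes, are 32 of the 33 further genes of LIF and related cytokine signalling. On the right are 13 of the 14 STAT3 target genes. Open points were not called. Lif has the largest Thr increase on the left (1.64), and Gbx2 has the largest Thr decrease on the right (-1.80).

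Genes with the most similar profile over the 3 group means, by Euclidean distance of centred log2(CPM + 0.5) values among 11409 or 11410 genes, were found for each of the 10. Socs3 lay nearest to Folr1 (distance 0.114), Cdkn1a (0.127) and Gm16973 (0.128), which all had positive Thr and negative Cys differences. Its nearest genes were farther away than those of any other member. Stat3 lay nearest to Eif1 (0.0344), Eda2r (0.0387) and Icam1 (0.0443), Lifr to H3f3b (0.0383), Mok (0.0418) and Fsd1l (0.0451), and Pim1 to Tmem126b (0.0259), Hist1h2ab (0.0260) and Hist1h2af (0.0262).

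The remaining genes had closer neighbours. They were Arv1 (0.00281), mt-Rnr2 (0.00717) and Cox11 (0.0169) for Pim3, Pgrmc1 (0.00280), Brcc3 (0.00422) and Pofut2 (0.00458) for Il6st, and Atp5b (0.00202), Rps18-ps1 (0.00311) and Gm9794 (0.00440) for Jak1. For Socs2 they were Dohh (0.00800), Gm10282 (0.00821) and Trmt112-ps1 (0.00933), for Socs1 Gclm (0.00796), Zscan21 (0.0109) and Gm3699 (0.0123), and for Cish Zmym4 (0.00427), Trim24 (0.00645) and Zfp687 (0.00991). With 3 group means per gene, this likeness is a description of level patterns only.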

How the data were processed

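RNA of 9 libraries (3 Thr-starved, 3 Cys-starved and 3 unstarved E14 cultures by label) was poly(A)-selected and prepared with a directional kit. The paper describes paired-end sequencing of its samples on a single run. Column names of the unstarved libraries carry a tag that those of the starved libraries lack, and what it marks is not given. Per the paper's methods and the submitters' processing notes, the authors aligned reads with STAR 2.7.4a to GRCm38, counted them per Ensembl gene with HTSeq and normalised with DESeq2 size factors in R 4.0.3. The DESeq version is written as 1.30.1. How the counter treated strand and overlapping genes is not given in the sources used here. The deposited raw count table was analysed, and the deposited normalised table, a signal in which the same counts are divided by 1 size factor per library, served for an alternative scaling. Even values made up 67.8% of 28226 counts from 1 to 20, so mates may have been counted separately and counts may overstate independent fragments, and repeating the fit on halved counts is among the alternatives.

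Counts were fitted with edgeR 4.0.16 (R 4.3.3; TMM scaling, quasi-likelihood F test, all 9 libraries in 1 fit with group as the factor), keeping 20143 genes with at least 1 count and adjusting by Benjamini-Hochberg over all of them. The SE is the log2 fold change divided by the root of F. Over all genes the common coefficient of variation was 3.53%. Library totals ran from 48763102 to 74962733, and counting intervals would cover counting error only. No pair of libraries of a group held identical values. Their chi-square per gene, taken over genes of low count, ran from 1.98 to 2.13. If mates were counted separately, counting error alone could give values of this size. How far libraries of a group differ beyond counting error was therefore not settled.

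Symbols, coordinates and exon lengths came from GENCODE M21, similar sequences from BLAST 2.17.0, and promoter windows from RefSeq (GRCm38.p6). All 10 genes are described. From the lists of 33 genes of LIF and related cytokine signalling and 14 STAT3 targets the text names Lif and, in each comparison with unstarved cells, the 3 largest called increases and decreases whose mean was 5 CPM or more. A gene of each list that met this rule is not reported here by name and is left out of the plot, but stays in the counts and medians. Socs5, Socs6, Socs7, Mcl1, Sall4, Tfcp2l1 and the marker genes named were chosen after their values were seen. The 10 genes and both lists were chosen with earlier results of these data known. Correlations of deviations between libraries of the same number ran from -0.244 to 0.106, so the numbers did not pair the samples. Alternatives were DESeq2 1.42.0, other scalings, filters and thresholds, thinned and halved counts, a replicate block and leaving out each library; those for the lists of 33 and 14 genes were chosen after seeing the data.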

Additional observations from a re-analysis of the deposited data

Results flagged for a closer look

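Socs3 and Pim3 were flagged because they were called in opposite directions in the starvations and also called in the direct contrast. That contrast is part of the rule and uses the same libraries, so it adds no separate support. The share of all genes that meet the rule was not counted. Socs3 was higher in all 3 Thr-starved and lower in all 3 Cys-starved libraries than in every unstarved library, and the log2 difference between the starved groups was 1.83 (SE 0.0256, edgeR adjusted p = 6.3e-23). For Pim3 that difference was 0.877 (SE 0.0263, edgeR adjusted p = 8.2e-18). The Cys side of Pim3 was small (-0.09) and lost its call without Cys-starved replicate 3 (-0.07, edgeR adjusted p = 0.071).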

How the results depend on the processing

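All values of the 10 genes with Thr starvation kept their direction and call (180 of 180 over 18 alternatives). With Cys starvation 155 of 180 did so 12 lost the call (11 of Lifr, 1 of Pim3), 9 gained it (all of Jak1) and 4 turned. In the direct contrast 175 of 180 did so, 3 lost the call (all of Socs1) and 2 turned. Every turned value was of a gene not called. With Cys starvation they were Cish, at 0.0309 without Cys-starved replicate 3 (-0.291 to 0.0309 over the libraries left out), Stat3, at -0.0226 with the deposited size factors and -0.0195 without unstarved replicate 1 (-0.0195 to 0.0483), and Il6st, at -0.00489 with the deposited size factors. Between the starved groups they were Jak1, at 0.00327 with the deposited size factors and 0.0023 without Thr-starved replicate 3 (-0.0755 to 0.0023). The cause was not tested.

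Leaving out 1 library left 9 of the 10 genes called with Thr starvation each time, 3 to 6 with Cys starvation (3 without Cys-starved replicate 3) and 8 to 9 between the starved groups. With all 9 libraries, 63.0, 36.3 and 62.0% of all genes were called in these comparisons. Shares of all genes with a library left out are not given here. With a replicate block, 12488, 7063 and 12334 genes were called with Thr starvation, with Cys starvation and between the starved groups, and 9, 4 and 9 of the 10; the block ended the Lifr call with Cys starvation (edgeR adjusted p = 0.079) and changed no other call of the 10. The numbers mark no shared culture in the labels.

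Requiring a log2 fold change of at least 1 as well left 2668 genes with Thr starvation (4 of the 10 genes, 4 of the 33 and 4 of the 14), 296 with Cys starvation (0 of each list) and 2303 between the starved groups (4, 3 and 4), where the threshold itself sets the loss. These are 13.2, 1.47 and 11.4% of all genes. With Cys starvation 48.2% of calls were higher, against 36.8% with the deposited size factors. No scaling moved the median of all genes by over 0.1. Low counts limit Socs1 and Cish.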
